A study of Mus musculus with 20 samples.

Results

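The heat shock proteins and chaperones described here are the 65 protein-coding genes whose mouse symbols begin with Hspa, Hspb, Hspd, Hspe, Hsph, Hsp90 or Dnaj and that reached at least 10 counts in at least 3 libraries, out of 25317 gene identifiers in the deposited count table. The table holds 72 protein-coding genes with such symbols, of 74 in the GENCODE M21 annotation. The other 7, Dnajb7, Dnajb13, Dnajc5b, Dnajc5g, Dnajc22, Hspb7 and Hspb9, stayed under that minimum, and Dnajb8 and Hspa14 were not analysed here. The symbol prefix also takes in Hspbp1 and Hspbap1, which bind heat shock proteins and are not chaperones of these families themselves.

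RNA was sequenced from the cortex of C57BL/6 mice aged 3 months, either wild type or with a heterozygous deletion of Foxp2. In each animal, an anti-GFP serum was used to capture tagged ribosomes with the mRNAs they carry (bacTRAP, called IP), and part of the lysate set aside beforehand served as the whole-tissue reference (called Input). IP and Input were compared in 5 wild-type animals (wt734, wt736, wt785, wtBT13, wtBT14) and 3 heterozygotes (het729, het786, hetBT13). The labels name no transgene, driver or cell type for the GFP tag, so the cells that the tag and the deletion reach are not known here. Another 4 heterozygous Input libraries, named IX or IXX, come from het730 and hetBT14, which have no IP, and they stand outside the main comparisons.

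Library totals ran from 2689544 to 5754169 counts, of which the 65 genes took 0.798% to 0.932%. Foxp2 itself held 27.9 ± 3.52 TMM-scaled CPM (counts scaled to library size, SD, n = 3) in heterozygous Input and 47.1 ± 10.9 (n = 5) in wild-type Input. Its IP levels were 46.7 ± 12.9 CPM in heterozygotes and 69.8 ± 21.2 in wild types. Transcripts of mitochondrial DNA made up at most 0.398% of counts in any IP library, a value reached by het729, which stands apart from the other 2 heterozygous IP libraries on this measure. The counts of called members and the values of named members in heterozygous IP were therefore also computed without het729. Sums over genes, counts of markers, counts of separated groups and counts at an unadjusted p were not. In these bulk samples, fewer cells of a type and less RNA per cell cannot be told apart.

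Chaperones help proteins fold, keep them from clumping and pass failed ones on for degradation. HSP70 proteins bind and release unfolded stretches in a cycle driven by ATP, in which DNAJ proteins (also called HSP40) bring the client and start ATP hydrolysis, and HSP110 proteins swap the spent ADP for new ATP. HSP90 takes over later folding steps of kinases and receptors, small heat shock proteins hold unfolded proteins without ATP, and the endoplasmic reticulum (ER) and mitochondria have their own sets. In neurons, DNAJ proteins also work with HSP70 on clathrin coats and on synaptic vesicle proteins.

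Per kilobase of exon, cytosolic HSP90 and constitutive HSP70 transcripts and that of Dnaja2 stood at the top in wild-type Input. The length is that of all annotated exons of a gene merged, so the order depends on the annotation. Dnaja1, for example, held 391 CPM over 8629 bases and ranked 13, whereas Dnaja2 held 429 CPM over 2975 bases. Hsp90ab1, the constitutive cytosolic HSP90, held 431 ± 28.4 CPM per kilobase (SD, n = 5), above every other member. Dnaja2 (144 ± 7.07), a DNAJ partner of Hspa8, the inducible HSP90 gene Hsp90aa1 (140 ± 11.9) and Hspa8 (137 ± 8.28), the constitutive cytosolic HSP70, followed, and these 3 did not differ beyond their spread. Dnajc5 (96.7 ± 8.64), the cysteine string protein of synaptic vesicles, and Hspbp1 (96.6 ± 3.47), an HSP70 nucleotide exchange factor, came next, also within each other's spread. Ranks 7 to 10 belonged to Dnajc27 (68.0 ± 7.46), a Rab-like GTPase with a J domain, Dnajc8 (63.5 ± 3.75), Dnajc7 (62.0 ± 3.59), a J protein that binds both HSP70 and HSP90, and the HSP110 gene Hsph1 (57.1 ± 6.38).

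The other core members ranked lower. Hspd1, the mitochondrial chaperonin HSP60, held 55.8 ± 5.13 CPM per kilobase in wild-type Input, Hspa9, the mitochondrial HSP70, 50.0 ± 5.77, and Hspe1, the co-chaperonin that caps HSP60, 33.6 ± 7.38. Dnajb1, the main stress-inducible HSP40, held 44.0 ± 5.56, Hsp90b1, the HSP90 of the ER, 42.3 ± 3.53, and Hspa5, the HSP70 of the ER (BiP), 34.4 ± 9.08. The strictly inducible HSP70 genes were far down the order, Hspa1b at 2.66 ± 0.556 and Hspa1a at 1.18 ± 0.323, as was the small heat shock gene Hspb1 at 2.39 ± 0.796. Pseudogenes take reads from some of these genes: 2 Hspd1 pseudogenes held 76.6% as many counts as Hspd1 over all libraries, the Dnajc19 pseudogene 80.5% as many as Dnajc19, 5 Hspe1 pseudogenes 23.9% and the Hspa9 pseudogene 15.8%. The levels of these 4 genes are uncertain for that reason, and those of Hspa1a and Hspa1b because the pair is nearly identical in sequence.

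**Figure D1:**
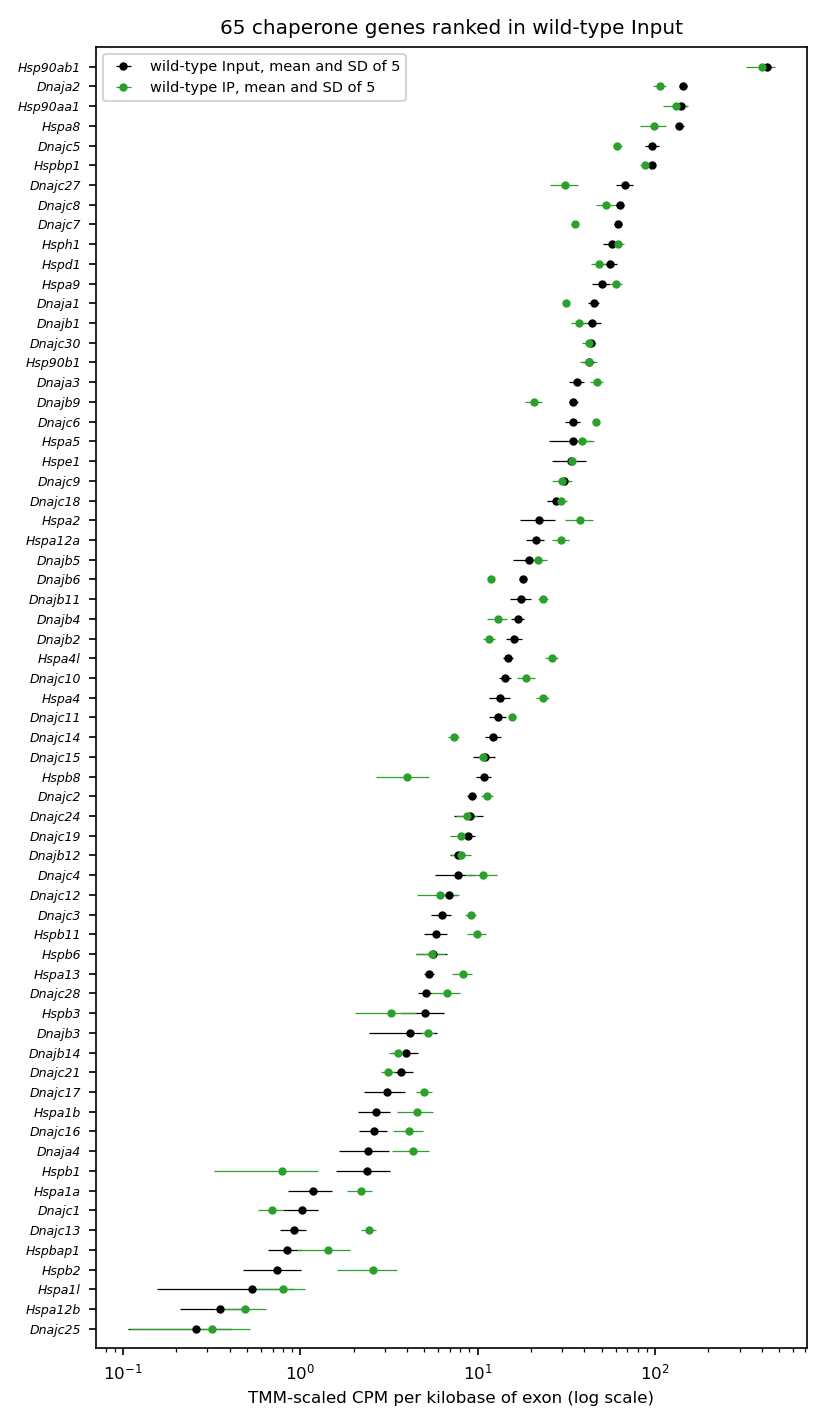
Levels of the 65 genes in TMM-scaled CPM per kilobase of exon (log axis) in wild-type Input (black) and wild-type IP (green), mean and SD of 5 animals, ordered by the Input mean. Hsp90ab1 leads at 431 in Input, and members that leave the order in IP, such as Hspb8 and Dnajc27, show as green points to the left.

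In wild types, the pull-down and the lysate differed for many chaperones, in both directions. Of 63 members tested, 24 were higher in IP, against a background of 28.5% of all genes tested, and 17 were lower, against 25.6% (edgeR quasi-likelihood test with animal as a block, Benjamini-Hochberg adjusted p below 0.05). The members' median log2 fold change was 0.05 and that of all genes 0.03, and the members called make up 38.1% and 27.0% of those tested. In heterozygotes 16 members were higher, against 22.6% of all genes, and 15 lower, against 22.1%, with a median of 0.09 beside 0.04 for all genes. These are 25.4% and 23.8% of the members, near the background. All 16 members called higher in heterozygotes were among the 24 of wild types (66.7% of those). Of the 15 called lower, 14 were among the 17 of wild types (82.4% of those and 93.3% of the heterozygous calls). All 42 members called in either genotype had the same sign in both.

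**Figure D2:**
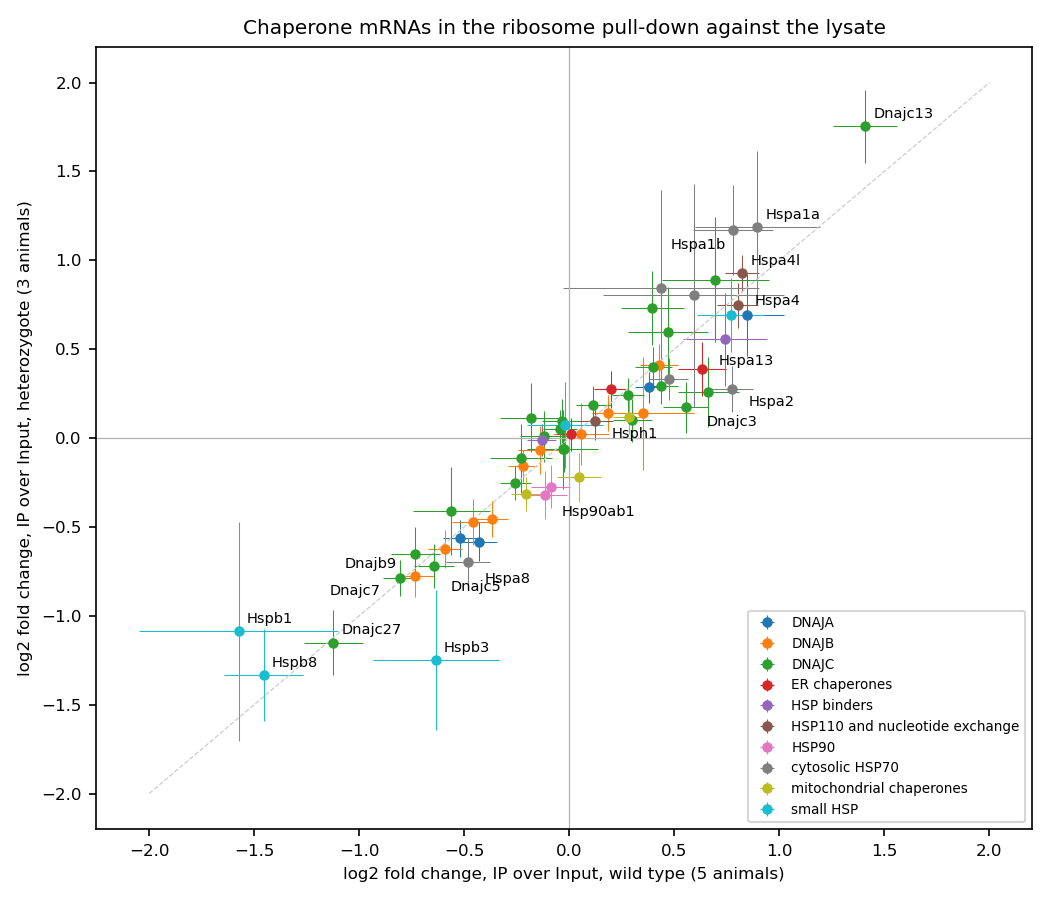
Log2 fold change of IP over Input in wild types (x axis, 5 animals) and heterozygotes (y axis, 3 animals) for the 63 members tested, with SE, coloured by role. The points follow the dashed line of equal change, from Hspb1 and Hspb8 at the lower left to Dnajc13 at the upper right.

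The HSP110 genes, nucleotide exchange factors of HSP70, were on the high side of the pull-down. Hspa4l (ENSMUSG00000025757, chr3:40744495-40796103 in mm10, plus strand) held 165, 174, 165, 177 and 194 CPM in Input of wt734, wt736, wt785, wtBT13 and wtBT14, and 333, 283, 341, 285 and 304 in their IP. Every wild-type IP library was above every Input library. It rose by 0.82 on the log2 scale in wild types (SE 0.08, adjusted p = 2.88e-08, edgeR) and by 0.93 in heterozygotes (SE 0.10, adjusted p = 5.42e-07), where Input held 141, 189 and 179 CPM and IP 260.1, 360.5 and 353 in het729, het786 and hetBT13.

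Hspa4 (ENSMUSG00000020361, chr11:53259814-53300457, minus strand), its close relative, held 65.3, 69.0, 81.3, 67.9 and 88.6 CPM in wild-type Input and 143, 124, 134, 129 and 114 in IP, with no overlap. The log2 change was 0.80 in wild types (SE 0.10) and 0.75 in heterozygotes (SE 0.13), both called. Hsph1, the third of the group and the most abundant per kilobase, was not called, with 0.12 (SE 0.08, adjusted p = 0.22, edgeR) and 0.09 (SE 0.11).

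Among cytosolic HSP70 genes, the inducible pair and the constitutive gene lay on opposite sides. Hspa1b (ENSMUSG00000090877, chr17:34956436-34959238, minus strand) held 8.10, 6.12, 9.80, 7.26 and 6.04 CPM in wild-type Input and 15.4, 11.1, 16.1, 12.2 and 9.02 in IP of the same animals. It was higher in the IP of each of the 8 animals, and the wild-type groups overlapped only in that the lowest IP (wtBT14) was below the highest Input (wt785). The log2 changes were 0.78 (SE 0.19, adjusted p = 0.00144, edgeR) in wild types and 1.17 (SE 0.25) in heterozygotes. Hspa1a, the neighbouring copy, rose by 0.90 (SE 0.30) and 1.19 (SE 0.43) at 2.54 to 4.90 CPM in wild-type Input and 5.02 to 7.66 in IP. Its heterozygous value ran from 0.48 to 1.65 with 1 animal left out, and its call was lost with DESeq2 and without hetBT13.

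Hspa8 (ENSMUSG00000015656, chr9:40800984-40810087, plus strand) held 542, 585, 603, 640 and 585 CPM in wild-type Input and 536, 391, 421, 432 and 346 in IP. All IP libraries were below all Input libraries, although wt734 IP (536) lay close to its own Input (542). Hspa8 fell by 0.48 on the log2 scale in wild types (SE 0.10, adjusted p = 0.000452, edgeR) and by 0.70 in heterozygotes (SE 0.13, adjusted p = 0.000242). Of the 7 members in this class, 4 rose in wild types (Hspa1a, Hspa1b, Hspa2 and Hspa12a) and Hspa8 alone fell, beside 28.5% and 25.6% of all genes. In heterozygotes 3 were called higher (Hspa1a, Hspa1b and Hspa12a) and Hspa8 lower, beside 22.6% and 22.1% of all genes.

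Cytosolic HSP90 differed less. Hsp90ab1 held 1209.7 to 1433 CPM in wild-type Input (median 1274) and 909.6 to 1495 in IP (median 1236), so the groups overlapped, with a log2 change of -0.12 (SE 0.10, adjusted p = 0.36, edgeR). Hsp90aa1 changed by -0.09 (SE 0.09). In heterozygotes the values were -0.32 (SE 0.13, adjusted p = 0.055, edgeR) and -0.27 (SE 0.12, adjusted p = 0.069). Both genes were lower in the IP of each of the 3 animals, as were 21 of 63 members and 4665 of 14797 genes tested. Both HSP90 genes were called lower in heterozygotes with DESeq2, with RLE factors, with a stricter filter on low counts and without het729.

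DNAJ proteins, which choose the clients of HSP70, went both ways. Of 38 tested in wild types, 13 were higher and 13 lower in IP, beside the 28.5% and 25.6% of all genes. The 4 DNAJA genes divided evenly: Dnaja1 (-0.52, SE 0.08) and Dnaja2 (-0.43, SE 0.08), cytosolic partners of Hspa8, fell, and Dnaja3 (0.38, SE 0.07), which acts in mitochondria, and Dnaja4 (0.84, SE 0.18) rose. For Dnaja4, 44.1% of exon bases overlap Wdr61 on the opposite strand, and with libraries that do not keep strand the reads of such genes cannot be told apart. Among 10 DNAJB genes, Dnajb9, Dnajb6, Dnajb2, Dnajb4 and Dnajb1 fell, by between 0.22 and 0.73 on the log2 scale, and Dnajb11 rose by 0.43 (SE 0.09).

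The largest rise of any member was that of Dnajc13, which uncoats endosomes together with Hspa8. Dnajc13 (ENSMUSG00000032560, chr9:104151282-104262930, minus strand) held 13.8, 11.4, 11.2, 8.94 and 9.85 CPM in wild-type Input and 30.8, 32.2, 30.3, 26.2 and 26.3 in IP. In heterozygotes Input held 9.42, 10.1 and 6.04 CPM and IP 29.2, 25.2 and 34.1. The lowest IP library of the 8 was above the highest Input library, and the fitted change was 2.65-fold in wild types (log2 1.41, SE 0.15, adjusted p = 9.99e-08, edgeR) and 3.37-fold in heterozygotes (log2 1.75, SE 0.21).

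Dnajc27 and Dnajc7 were the DNAJC genes with the largest falls. Dnajc27 (ENSMUSG00000020657, chr12:4082583-4110606, plus strand) held 313, 363, 325, 324 and 405 CPM in wild-type Input and 143, 196, 170, 167 and 120 in IP. Its groups did not overlap, and IP was at 45.9% of Input (log2 -1.12, SE 0.14, adjusted p = 1.72e-05, edgeR). Dnajc7 (ENSMUSG00000014195, chr11:100582818-100620168, minus strand) held 283, 298, 288, 315 and 324 CPM in Input and 182, 175, 161, 168 and 174 in IP, again without overlap, at 57.2% of Input (log2 -0.81, SE 0.08, adjusted p = 3.05e-08). Heterozygotes gave -1.15 (SE 0.18) and -0.79 (SE 0.10).

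Both DNAJ proteins of the presynaptic vesicle cycle changed, in opposite directions. Dnajc5 fell by 0.64 on the log2 scale in wild types (SE 0.10) and by 0.72 in heterozygotes (SE 0.12), from 606 to 762 CPM in wild-type Input to 391 to 456 in IP. Dnajc6, auxilin, which strips clathrin from recycled vesicles, rose by 0.44 (SE 0.08) and 0.29 (SE 0.10), from 183 to 228 CPM in wild-type Input to 250.1 to 284 in IP. The heterozygous call of Dnajc6 was lost with DESeq2, without het729 and without het786. Neither gene's wild-type groups overlapped.

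Most small heat shock genes were lower in the pull-down or did not differ. Hspb8 (ENSMUSG00000041548, chr5:116408491-116422864, minus strand), which works with Bag3 in clearing misfolded proteins, held 21.05, 19.7, 22.2, 24.3 and 18.7 CPM in wild-type Input and 9.04, 7.35, 3.76, 10.7 and 8.10 in IP. No library of either fraction crossed into the other, and IP was at 36.5% of Input in wild types (log2 -1.45, SE 0.19, adjusted p = 1.43e-06, edgeR) and 39.7% in heterozygotes. Hspb1, at 1.59 to 3.63 CPM in wild-type Input and 0.184 to 1.33 in IP, fell by 1.57 (SE 0.47), and was not called in heterozygotes (-1.09, SE 0.62). Hspb3 fell in heterozygotes (-1.25, SE 0.39) and was not called in wild types (-0.64, SE 0.30). Hspb11, which despite its symbol is a subunit of the intraflagellar transport complex, rose by 0.77 (SE 0.16) and 0.69 (SE 0.21). The heterozygous call of Hspb3 was lost with the stricter filter and without het786, and that of Hspb11 without het786 and without hetBT13.

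**Figure D3:**
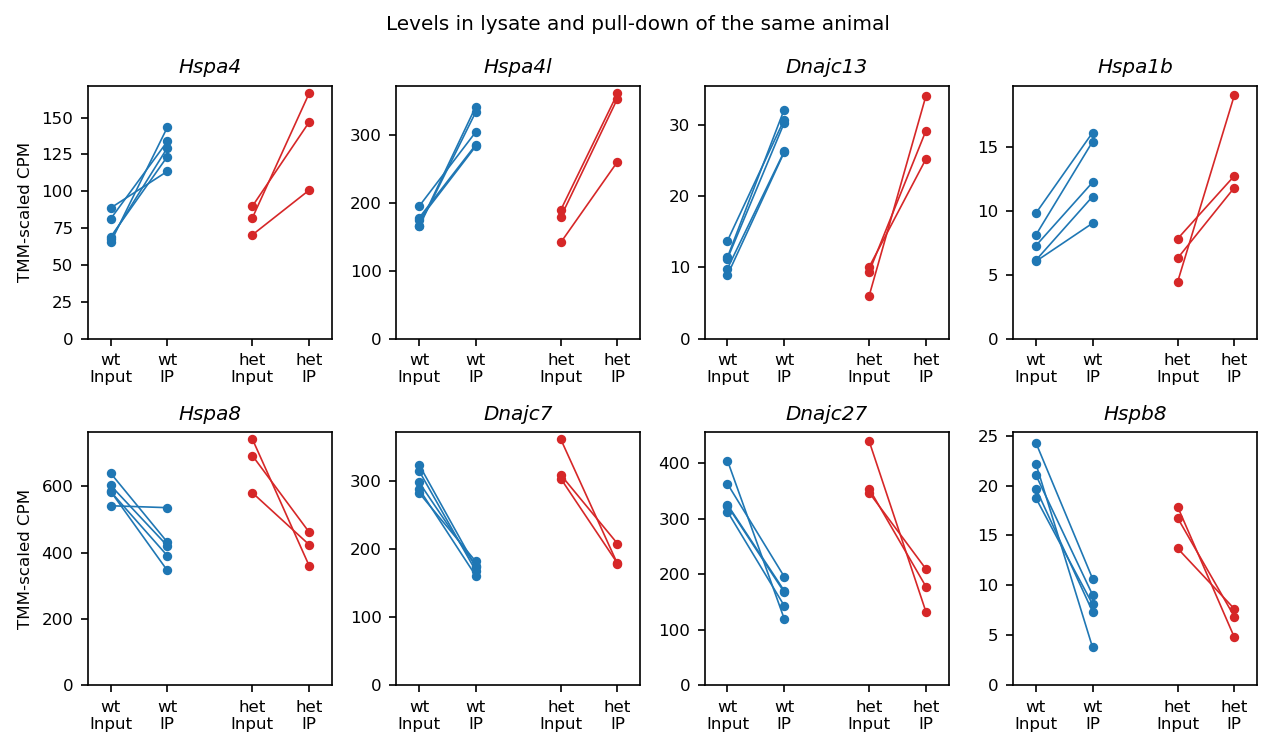
TMM-scaled CPM of 8 members in Input and IP, with a line for each animal (wild types blue, n = 5; heterozygotes red, n = 3). The lines of Hspa4, Hspa4l, Dnajc13 and Hspa1b rise in all 8 animals and those of Hspa8, Dnajc7, Dnajc27 and Hspb8 fall in all 8.

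Chaperones of the organelles were mixed. Of 10 members that act in the ER (Hspa5, Hsp90b1, Hspa13, Dnajb9, Dnajb11, Dnajc1, Dnajc3, Dnajc10, Dnajc16 and Dnajc25), 9 were tested in wild types, where 6 rose and Dnajb9 and Dnajc1 fell, beside the 28.5% and 25.6% of all genes. In heterozygotes 4 of the 9 rose and Dnajb9 fell, beside 22.6% and 22.1% of all genes. This grouping was made after the values were seen. Hspa5 rose by 0.20 (SE 0.08, adjusted p = 0.0371, edgeR), and Hspa13, an ER HSP70 that lacks the substrate-binding domain, by 0.63 (SE 0.11). Dnajb9, which the unfolded protein response induces, fell by 0.73 (SE 0.09), and Hsp90b1 was at 0.01 (SE 0.07). In mitochondria Hspa9 rose by 0.28 (SE 0.08), Hspd1 fell by 0.20 (SE 0.07) and Hspe1 was at 0.05 (SE 0.11), not called.

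Some of these calls depend on the settings. The wild-type calls of Dnajb1, Dnajc1, Dnajc4, Dnajc17, Dnajc28, Hspa1a, Hspa5, Hspb1 and Hspd1 were each lost under at least 1 alternative, and the heterozygous count of members called higher went from 16 to 6 without het786, to 9 without hetBT13 and to 9 with DESeq2. Without het729 the heterozygous counts were 13 higher and 16 lower. The heterozygous calls lost under at least 1 alternative were those of Dnaja3, Dnaja4, Dnajb2, Dnajb11, Dnajc6, Dnajc8, Dnajc10, Dnajc14, Dnajc17, Dnajc28, Hspa1a, Hspa5, Hspa12a, Hspa13, Hspb3, Hspb11 and Hspd1. Among these, Dnaja3, Dnajc6, Dnajc8, Dnajc28 and Hspa13 lost theirs without het729. The calls of Hspa4, Hspa4l, Hspa8, Dnajc13, Dnajc27, Dnajc7 and Hspb8 were made under every alternative run in wild types.

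Other chaperone genes were counted as lists, to be read against the 28.5% of all genes higher and 25.6% lower. Of 29 regulators and co-chaperones tested in wild types, 4 rose and 15 fell (median log2 -0.20). The heat shock factor Hsf1 was at 0.08 (SE 0.10), not called. Stip1 (-0.59, SE 0.07), which links HSP70 to HSP90, St13 (-0.57, SE 0.08), which slows HSP70 release, and the ubiquitin ligase Stub1 (-0.36, SE 0.07) were among those that fell with Hspa8. Of 10 genes of mitochondrial protein quality, 7 rose and 0 fell (median 0.57), among them the protease Lonp1 (1.01, SE 0.09) and the mitochondrial HSP90 Trap1 (0.66, SE 0.08). Of 17 ER folding genes, 6 rose and 4 fell, with Hyou1, the HSP110 of the ER, at 0.92 (SE 0.19) and Xbp1 at -0.79 (SE 0.08). Of 14 chaperonin and prefoldin genes, 3 rose and 4 fell. In heterozygotes, to be read against 22.6% and 22.1% of all genes, 2 of the 14 rose and 8 fell (median -0.28). The other lists there had 3 higher and 14 lower (regulators and co-chaperones), 6 and 0 (mitochondrial protein quality) and 6 and 2 (ER folding). No gene of these lists was called in the difference between genotypes.

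Markers of other cell types moved with the same contrast. In wild-type IP against Input, 6 of 6 interneuron markers, 4 of 5 oligodendrocyte markers and 5 of 6 astrocyte markers fell, and 2 of 4 layer 6 markers rose. Aldh1l1, the other astrocyte marker, rose. Of microglia markers 3 of 5 fell, and of blood markers 3 of 3. Summed astrocyte markers ran from 803 to 1145 CPM in wild-type Input and from 475 to 644 in IP, and summed oligodendrocyte markers from 2577 to 3308 and from 624 to 896. No marker of these lists was at 0 in every library of a group. All 21 tested transcripts of mitochondrial DNA fell, by a median of 4.40 on the log2 scale. Their part in the differences of the chaperones was not tested.

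The pull-down effect was not shown to differ between the genotypes for any member. In the test of the difference itself 0 members were called, against 0% of 14797 genes, and DESeq2 also called 0. At an unadjusted p below 0.05 there were 2 of 63 members, against 3.07% of all genes. They were Hspa2, an HSP70 best known from male germ cells (difference -0.50, SE 0.16, unadjusted p = 0.00565), and Dnajc3 (-0.38, SE 0.18, unadjusted p = 0.0447), both with an edgeR adjusted p of 1. Hspa2 held 55.0, 57.2, 67.1, 74.8 and 40.7 CPM in wild-type Input and 103, 79.6, 93.9, 128 and 97.2 in IP, and 64.6, 64.7 and 86.6 against 73.8, 89.8 and 97.8 in heterozygotes. It was higher in IP in all 8 animals, by 1.39- to 2.39-fold in wild types and 1.13- to 1.39-fold in heterozygotes, ranges that adjoin. Without het729 the differences were -0.46 for Hspa2 and -0.49 for Dnajc3.

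Next, heterozygotes were compared with wild types within the pull-down, where 0 of 64 members were called, against 0% of all genes (DESeq2 called 3 genes in all and 0 members). An unadjusted p below 0.05 was reached by 4 members, against 4.09% of all genes, and all 4 were lower in heterozygotes and act in the ER. Every heterozygote was below every wild type for 2 members, against 1.74% of all genes, and above for 0, against 1.82%.

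Dnajc3 (ENSMUSG00000022136, chr14:118937976-118981697, plus strand), known as p58IPK, a BiP co-chaperone and inhibitor of the kinase PERK, held 49.4, 42.7, 44.3, 48.2 and 50.4 CPM in wild-type IP and 38.7, 33.2 and 28.2 in heterozygous IP. The highest heterozygote lay below the lowest wild type. The log2 change was -0.50 (SE 0.13, unadjusted p = 0.00211, adjusted p = 0.981, edgeR). In Input of the same animals the groups overlapped, with 27.2 to 35.9 CPM in wild types and 28.6 to 30.1 in heterozygotes.

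Hspa13 (ENSMUSG00000032932, chr16:75745431-75767104, minus strand) held 59.7, 47.9, 66.3, 50.9 and 57.6 CPM in wild-type IP and 43.3, 41.7 and 46.0 in heterozygous IP, also without overlap. Its log2 change was -0.38 (SE 0.13, unadjusted p = 0.0102, adjusted p = 0.981, edgeR). Dnajc16 was at -0.50 (SE 0.19) and Dnajb11, a BiP co-chaperone, at -0.26 (SE 0.11), and in both the groups overlapped. Without het729 the values were -0.62 for Dnajc3, -0.37 for Hspa13, -0.46 for Dnajc16 and -0.26 for Dnajb11. In the same comparison 5 of 6 astrocyte markers, 4 of 5 oligodendrocyte markers and 5 of 5 microglia markers were lower in heterozygous IP (median log2 -0.30, -0.37 and -0.41), with 0 called. Transcripts of mitochondrial DNA took 0.398% of counts in het729, against 0.0616% in het786, 0.0694% in hetBT13 and 0.0664% to 0.127% in wild-type IP. Their part in the values of the chaperones was not tested.

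As a group, the 10 ER members listed above lay on the low side in heterozygotes in both fractions, without any of them passing the adjusted threshold. The group was formed after the values were seen, so its counts and sums describe these data and test nothing. Other members could be placed in the ER as well, and the counts depend on which were picked. Dnajc25 was near the floor, with 2 to 16 counts in the IP libraries. In IP the log2 changes of all 10 were negative (median -0.24, beside 0.00 for all genes), and in Input those of all 9 tested were negative (median -0.21, beside 0.01). The 2 fractions come from the same animals and are no independent evidence of each other. Summed over the 10 genes, heterozygous IP held 592, 611 and 577 CPM in het729, het786 and hetBT13, and wild-type IP 712, 614, 671, 777 and 719 in the order above. The groups did not overlap but lay close, with het786 at 611 and wt736 at 614. In Input the sums were 567, 554 and 519 in heterozygotes and 631, 557, 605, 720 and 644 in wild types, where wt736 lay within the range of the heterozygotes. The list of other ER folding genes had 12 of 17 negative in IP (median -0.16) and 14 of 17 in Input (median -0.09), with 0 called.

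**Figure D4:**
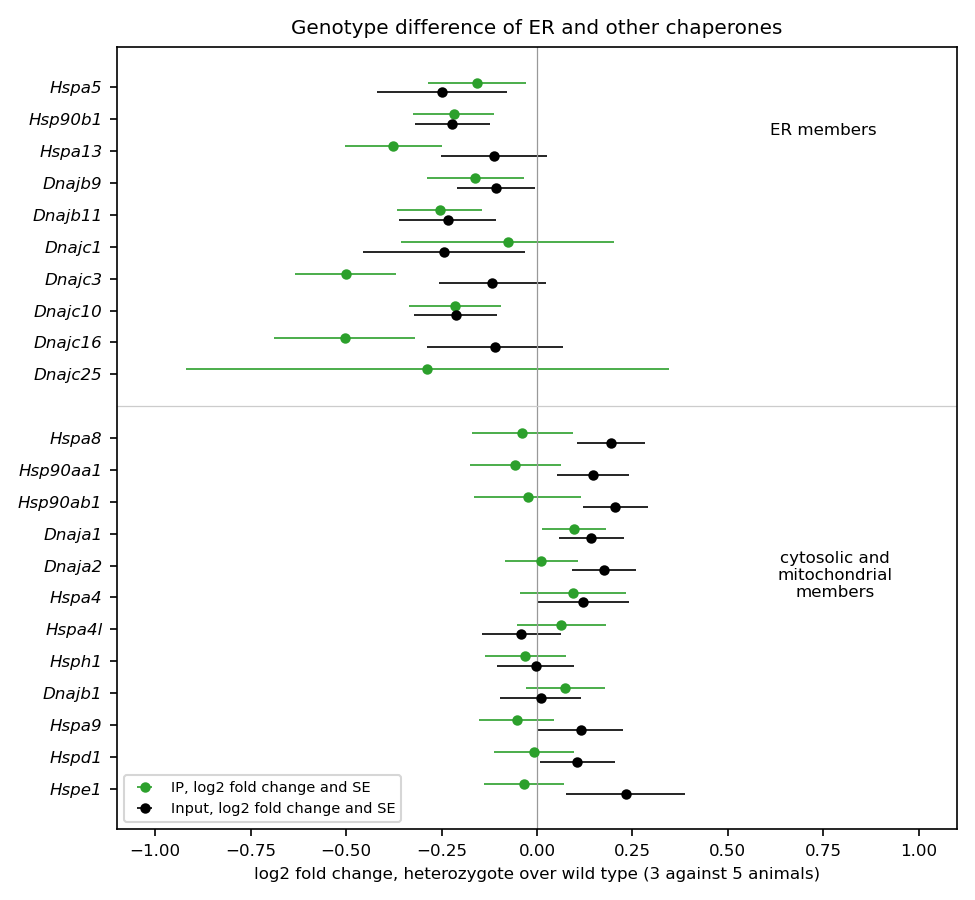
Log2 fold change of heterozygotes over wild types with SE in IP (green) and Input (black) for the 10 ER members and for 12 cytosolic and mitochondrial members. The ER members lie left of 0 in both fractions, Dnajc3 and Dnajc16 farthest at -0.50 in IP, and none passed the adjusted threshold. The ER group was formed after the values were seen.

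The promoters of Hspa5, Hsp90b1 and Dnajc3 are shown because they were the members holding an ER stress element, the site through which the unfolded protein response is known to act on this pathway. The search used RefSeq windows of GRCm38.p6 from 250 bases before to 50 after the start, found for 53 of the 65 members, and took CCAAT, any 9 bases and CCACG on either strand. It matched in 3 of the 53 genes, against 0.137% of 27025 genes with a window. The stretches run 5′ to 3′ on the gene's strand, with matches in capitals.
Hspa5, chr2:34772020-34772048, plus strand: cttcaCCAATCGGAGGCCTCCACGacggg
Hsp90b1, chr10:86705513-86705676, minus strand: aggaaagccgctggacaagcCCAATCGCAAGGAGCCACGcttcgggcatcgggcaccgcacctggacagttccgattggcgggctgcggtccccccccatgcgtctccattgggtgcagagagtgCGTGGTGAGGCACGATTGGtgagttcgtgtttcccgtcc
Dnajc3, chr14:118937807-118937865, plus strand: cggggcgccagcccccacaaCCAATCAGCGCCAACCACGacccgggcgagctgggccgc
The matches begin 65 bases before the RefSeq start in Hspa5 and 105 before it in Dnajc3, and Hsp90b1 holds 2, at 212 and 107 before it, the second on the opposite strand. All 29 bases of the Hspa5 stretch lie within exons annotated in GENCODE M21, and 0 bases of the Hsp90b1 and Dnajc3 stretches do. A match describes letters and is no evidence of binding.

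These 3 genes did not share a pattern beyond their sign in the genotype comparison. In IP, Dnajc3 was at -0.50, Hsp90b1 at -0.22 (SE 0.11) and Hspa5 at -0.16 (SE 0.13). In Input the order was other, with Hspa5 at -0.25 (SE 0.17), Hsp90b1 at -0.22 (SE 0.10) and Dnajc3 at -0.12 (SE 0.14).

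Hspa5 (ENSMUSG00000026864, chr2:34771970-34777547, plus strand) varied widely among the wild types. Wild-type Input held 119.5, 113, 144, 209.7 and 142 CPM and wild-type IP 156, 130.0, 163, 205 and 166, with wtBT13 the highest in both fractions. Heterozygotes held 126, 126 and 112 in Input and 132, 163 and 148 in IP. The 4 IX and IXX libraries widened this range, with 88.4 and 92.1 CPM in het730, below every other Input, and 182 and 210.1 in hetBT14, where wtBT13 alone of the wild types was near, at 209.7. The sum of the 10 ER members divided these libraries in the same way, with 517 and 488 CPM in het730 and 740 and 755 in hetBT14, so that with these 2 heterozygous animals the genotypes overlapped fully in Input.

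**Figure D5:**
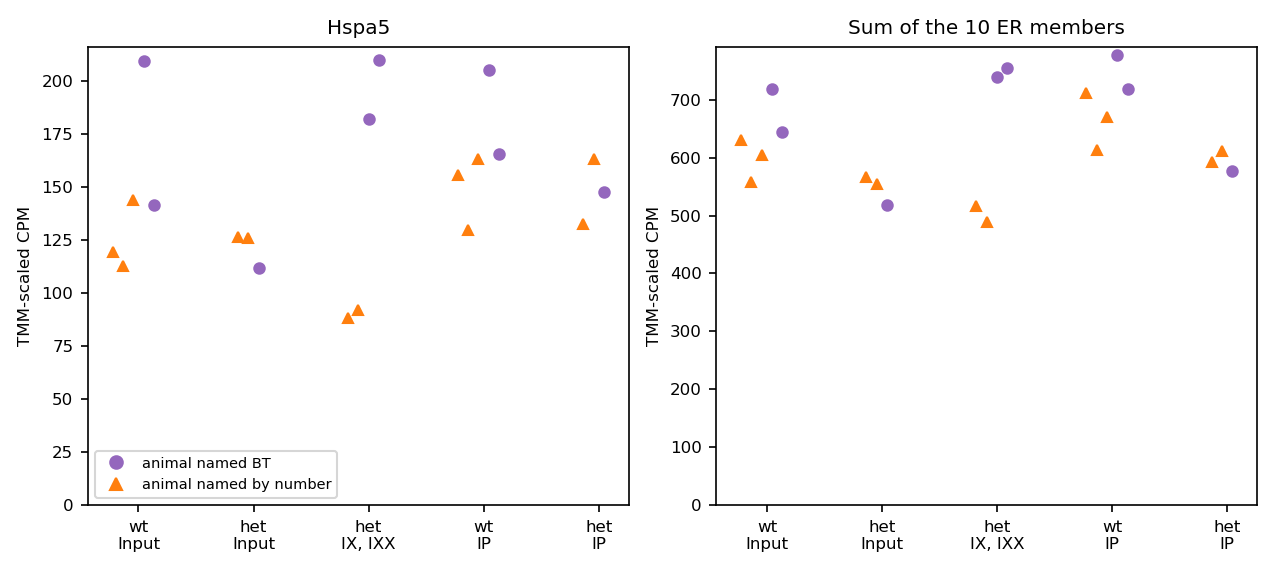
TMM-scaled CPM of Hspa5 (left) and of the 10 ER members summed (right) in every library, by group, with circles for animals named BT and triangles for animals named by number alone. The IX and IXX libraries of hetBT14 lie high and those of het730 low, around the range of both genotypes in Input.

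Within Input, 0 of 61 members were called between genotypes, against 0% of all genes (DESeq2 called 0), and 6 reached an unadjusted p below 0.05, against 7.06% of all genes. Every heterozygote was below every wild type for Hspb8, against 2.88% of all genes, and above for 0 members, against 2.42%. Of these 6, Hsp90ab1 was at 0.21 (SE 0.09, unadjusted p = 0.0267), Hspa8 at 0.19 (SE 0.09, 0.0416) and Dnaja2 at 0.18 (SE 0.08, 0.0482), and Hspb8, Hsp90b1 and Dnajc28 were negative, each with an edgeR adjusted p of 0.683 to 0.698. By class, HSP90 had 2 of 2 positive and DNAJA 4 of 4, while cytosolic HSP70 had 3 positive and 2 negative (median 0.05) and HSP110 1 positive and 2 negative. Hsp90ab1 held 1270.2, 1600.4 and 1578 CPM in het729, het786 and hetBT13, and 1274, 1296, 1433, 1209.7 and 1246 in wild types. Of these heterozygotes het786 and hetBT13 were above all wild types and het729 was among them. The IX and IXX libraries were not high, with 1372 and 1224 CPM in het730 and 1094 and 1285 in hetBT14. Hspa8 (483 to 574 CPM) was below the wild-type median of 585 in all 4.

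In the same comparison 13 of 14 chaperonin and prefoldin genes (median log2 0.15) and 25 of 29 regulators and co-chaperones (median 0.08) were positive, with 0 called. In IP the values of Hspa8 and the cytosolic HSP90 genes were near 0, with Hsp90ab1 at -0.02 (SE 0.14), Hsp90aa1 at -0.06 (SE 0.12) and Hspa8 at -0.04 (SE 0.13). The 7 cytosolic HSP70 genes ran from -0.29 to 0.78 there, with 0 called.

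Hspb8 in Input held 16.8, 17.9 and 13.7 CPM in heterozygotes, all below the lowest wild type at 18.7. The log2 change was -0.38 (SE 0.16, unadjusted p = 0.0316, adjusted p = 0.683, edgeR), and the 4 IX and IXX libraries, at 11.4, 12.2, 14.1 and 15.5 CPM, were below every wild type too. These 4 libraries come from het730 and hetBT14 only. Hspb8 was the only member below every wild type in all 4. The share of all genes for which this held was not counted, so how rare it is cannot be said. Beside Hspb8, 5 of 6 astrocyte markers were lower in heterozygous Input (median log2 -0.43, 0 called). Their sum ran from 701 to 761 CPM in heterozygotes against 803 to 1145 in wild types and 601 to 978 in the IX and IXX libraries. All 10 immediate early genes were negative as well (median -0.73). The part of these in the chaperone values was not tested.

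The remaining core members were not called between genotypes either. In IP, Hspa9 was at -0.05 (SE 0.10), Hspd1 at -0.01 (SE 0.10), Hspe1 at -0.03 (SE 0.10), Hsph1 at -0.03 (SE 0.11), Dnajb1 at 0.07 (SE 0.10), Hspa1a at -0.07 (SE 0.30) and Hspa1b at 0.18 (SE 0.23). In Input, Hspa9 was at 0.11 (SE 0.11), Hspd1 at 0.11 (SE 0.10), Hspe1 at 0.23 (SE 0.16), Hsp90aa1 at 0.15 (SE 0.09), Hsph1 at -0.0037 (SE 0.10), Dnajb1 at 0.01 (SE 0.11), Hspa1a at -0.45 (SE 0.39), Hspa1b at -0.24 (SE 0.25) and Hspb1 at -0.20 (SE 0.41). With an SE of this size, these values do not show that the genotypes are alike.

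Animals are named in 2 ways, by number alone or by BT and a number, and what the form means is not given. Both genotypes hold both forms. In Input, 1 member was called higher in the BT animals, against 1.43% of all genes, and 2 lower, against 4.43%. Hsph1 was higher by 0.27 on the log2 scale (SE 0.07, adjusted p = 0.0275), and Hspe1 (-0.48, SE 0.11, adjusted p = 0.0124) and Dnajc15 (-0.40, SE 0.10, adjusted p = 0.0153), which takes part in protein import into mitochondria, were lower (edgeR quasi-likelihood test). In IP 0 members were called, against 0.339% higher and 0.319% lower among all genes (DESeq2 also called 0, and 9 of 64 members had an unadjusted p below 0.05, against 15.8% of all genes). In the same comparison in Input, 4 of 14 chaperonin and prefoldin genes were called lower (Pfdn1, Pfdn2, Pfdn4 and Pfdn5, which carry new proteins to the cytosolic chaperonin) and 9 of 10 immediate early genes were positive (median 0.96, 1 called). All 3 members lost their call when the IX and IXX libraries were included and when wtBT13 was left out, and the part of the immediate early genes was not tested.

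Hspe1 and Hspd1, whose products assemble into the mitochondrial folding chamber, lie head to head on chromosome 1 with overlapping promoters, and a stretch of these is shown because the pair did not move together. The stretch holds a heat shock element of 3 alternating units (NGAAN or its inverse NTTCN, either strand; 2 overlapping matches, in capitals).
Hspe1, chr1:55088053-55088082 in GRCm38.p6, plus strand: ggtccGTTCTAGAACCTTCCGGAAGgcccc
Such an element was found in 4 of 53 members, against 0.659% of 27025 genes with a window. Hspe1 and Hspd1 are 2 of these 4 through this same stretch. All 30 bases of the stretch lie within exons annotated in GENCODE M21. Hspe1 held 58.6, 49.3 and 62.2 CPM in Input of wt734, wt736 and wt785 but 38.0 and 39.7 in wtBT13 and wtBT14, whereas Hspd1 held 135, 132 and 150 against 163 and 157. By the form of the name, Hspd1 was at 0.18 (SE 0.08, adjusted p = 0.19, edgeR), opposite in sign to Hspe1. The heterozygotes named BT were not all low in Hspe1. Its raw counts in Input were 136 of 3791468 in wtBT13, 124 of 2782934 in hetBT13, and 342 of 5621906 and 267 of 3790852 in hetBT14 (IX and IXX). With the IX and IXX libraries included, Hspe1 was at -0.30. The exons of the 2 genes share 112 bases, and pseudogene counts touch both. With those counts added to their parent genes, the number of members called by name form stayed at 1 and 2.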

How the data were processed

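The values are raw read counts per gene, deposited as 1 table of 20 libraries (10 animals). The authors counted with HTSeq and used mm10, per the submitters' processing notes. The aligner, the annotation and whether strand was used in counting are not known here. Libraries were made with Smart-seq2 per the labels' protocols, which marks neither strand nor single molecules, so the exons that 18 members share with other genes cannot be assigned and counting error understates the real error. Names, positions and exon lengths came from GENCODE M21, and promoter windows from RefSeq.

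Counts were tested in R 4.3.3 with edgeR 4.0.16 (filterByExpr with a count minimum of 10, TMM factors, robust quasi-likelihood F tests, Benjamini-Hochberg adjusted p below 0.05 over all genes tested) and, as an alternative, DESeq2 1.42.0. IP against Input was fitted over 16 libraries with animal as a block, since IP and Input of an animal share a lysate per the labels' protocols. Deviations of the 2 libraries of an animal from their group means had r from 0.059 to 0.240 over 14797 genes, in 7 of 8 animals above any other animal of that genotype (the exception was wtBT14, 0.079 against 0.195). Genotype and form of the name were fitted within a fraction, 8 libraries each. CPM are TMM-scaled over all 20 libraries. Every fit was also run on simulated counts without an animal effect, a simpler setting than these data, and no conclusion is drawn from it here.

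Named were 13 core members, the called members of a comparison (at most 10 in each direction; with under 3 calls, 4 by unadjusted p) and the 10 highest per kilobase. The members, lists and rules were chosen with earlier results of these data known. Protein sequences were not used here. Alternatives were other scaling, filters on low counts, no block, the form of the name as a covariate, the IX and IXX libraries, added pseudogene counts and leaving out each animal.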

Additional observations from a re-analysis of the deposited data

Results flagged for a closer look

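In 43 named members, the highest and lowest library of the 5 wild types were compared with the rest in each fraction, and 2 of 86 checks found a library far from the others, where chance gives about 1 in 20. Dnaja4 held 13.5 CPM in Input of wt734 and 6.99 to 8.25 in the other 4 wild-type Input libraries. Dnajc6 held 250.1 CPM in IP of wt736 and 277 to 284 in the other 4.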

How the results depend on the processing

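Under the alternatives run the wild-type pull-down gave 20 to 26 members higher and 14 to 18 lower. Without the replicate block it gave 23 and 16, and the heterozygous one 15 and 14. No paired analysis was possible between genotypes because they share no animal. Adding pseudogene counts and the name form in Input with the IX and IXX libraries were chosen after seeing the data. The heterozygous count of members higher was 9 with DESeq2 and 6 to 19 when leaving out 1 animal. The name form in Input gave 2 members higher with RLE factors, with no filter and with the strict filter, 0 higher and 0 lower with the IX and IXX libraries, and 0 to 1 higher and 0 to 2 lower leaving out 1 animal. In IP it gave 1 lower with no filter.

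Some values changed sign, and the cause was not tested. In the wild-type pull-down Hsp90b1 was -0.0133 with DESeq2, -0.0134 with RLE factors and -0.00491 with the strict filter, and Hspe1 -0.0243 with pseudogene counts (-0.0239 to 0.125 leaving out 1 animal). In heterozygotes Hsp90b1 was -0.00958 and -0.00948 with DESeq2 and RLE factors (-0.0355 to 0.0869 leaving out 1). In the difference between genotypes, leaving out 1 animal gave Hspa1a -0.412 to 0.768, Hsp90b1 -0.0464 to 0.0757, Hsph1 -0.0862 to 0.0348 and Hspb1 -0.203 to 1.33.

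For genotype in IP, Hspd1 was 0.00919 with the name form as a covariate and Hspe1 0.00981 with pseudogene counts. Leaving out 1 animal gave Hspa1a -0.501 to 0.207, Hspa1b -0.0639 to 0.311, Hspa8 -0.122 to 0.0563, Hspa9 -0.138 to 0.0110, Hsp90aa1 -0.107 to 0.0399, Hsp90ab1 -0.110 to 0.0625, Hspd1 -0.0496 to 0.0658 and Hsph1 -0.0996 to 0.0744. For genotype in Input, Dnajb1 was -0.00363 with no filter and -0.0730 with the IX and IXX libraries, which put Hspb1 at 0.440, and Hsph1 was 0.0151 with the covariate. Leaving out 1 gave Hspa9 -0.0151 to 0.231, Hsph1 -0.110 to 0.0842, Hspb1 -0.509 to 0.0413 and Dnajb1 -0.0371 to 0.0691.

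For the name form in Input, Hsp90b1 was -0.0112 with no filter, -0.00321 with the strict one and -0.0495 to 0.0604 leaving out 1, Hspa5 -0.00187 to 0.461, and Hspa8 -0.00769 with the IX and IXX libraries. In IP Hspa1b was 0.000110 with RLE factors, 0.00140 with the strict filter and -0.422 to 0.227 leaving out 1, Hspa8 -0.210 to 0.0863 and Hsp90ab1 -0.265 to 0.0872.

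Depth limits the members of fewest counts most, such as Hspb1, Hspa1a and Hspb3.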
